A study of Homo sapiens with 12 samples.

Results

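Chromosome 10 was represented by 1291 of the 30170 regions of open chromatin counted in this ATAC-seq experiment, taken as every region whose name placed it on that chromosome. Of these regions 286 lay on the short arm (10p, start below 40 Mb) and 1005 on the long arm (10q), and they were described in 14 bins of 10 Mb numbered from the end of the short arm. The chromosome was chosen by its summed counts, which had already been seen to be lower in the combined line than in the others, so levels by arm and bin are given as a description with no test.

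The cells were HCT116, an established and poorly differentiated human colorectal carcinoma line, in 4 groups of 3 libraries each. EV cells carried an empty vector, the control of the EHF transfection, and the methods describe isolation of geneticin-resistant clones for stably transfected lines. EHF cells had been transfected with a plasmid for EHF, an ETS-family transcription factor of epithelia, and geneticin-resistant clones had been isolated. CDX1 cells had been transduced with a retrovirus for CDX1, a homeobox factor of the intestinal epithelium, and sorted for the GFP that the virus also encodes. EHF+CDX1 cells were the CDX1 cells transfected with the EHF plasmid, again with selection of geneticin-resistant clones. The number of clones behind each line, and whether the libraries of a group came from separate cultures, were not given in the sources used here, so p-values measure only the spread between these libraries and a property of a selected clone cannot be told apart from an effect of the factors.

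ATAC-seq marks chromatin that the Tn5 transposase can enter, and start sites of active genes and enhancers give most of its regions. The count of a region also scales with the number of DNA copies that the cells carry. HCT116 is near-diploid, and its karyotype is known to include a rearranged chromosome 10 with a duplicated distal long arm joined to the end of the long arm of chromosome 16. In bulk counts, fewer copies of a segment, a smaller share of cells that carry it and lower accessibility within it cannot be told apart. Chromosome 10 holds the Wnt effector gene TCF7L2, the receptor gene FGFR2 and several genes of fatty acid synthesis and activation.

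Total counts ran from 567366 to 2443334 a library, and chromosome 10 received 7827 to 32381 of them, with a median of 4 to 18 counts a region. Counts over EHF exons were 543188 to 1536042 in EHF and 91907 to 759842 in EHF+CDX1 libraries against 30 to 100 in the other libraries, and counts over CDX1 exons were 524981 to 1916479 in the CDX1 line and 77147 to 545352 in the combined line against 18 to 104 elsewhere, as the labels say. Of 6 epithelial marker genes 5 had a region within 1 kb of a start site, and their summed level, per 1000000 counts on the other autosomes, was 153 to 235 in EV libraries, 242 to 272 with EHF alone, 245 to 302 with CDX1 alone and 312 to 458 with both. Of 3 fibroblast markers 2 had a region, with summed levels of 58.4 to 66.1 in EV and 46.2 to 63.0 in EHF+CDX1. CDH1 and DCN had no such region, and neither did any of 3 blood markers. Of the counts on the other autosomes, 64.8% to 73.6% fell in regions with a match to mitochondrial DNA in EV libraries but 39.3% to 58.1% in EHF+CDX1 libraries. Replicate 2 had the most counts on chromosome 10 in every group, and replicate 2 of EHF+CDX1 stood apart from its group with the largest total on the other autosomes and the lowest mitochondrial share. That library also had the fewest exon counts of its group, 91907 over EHF and 77147 over CDX1. Replicate 1 had 759842 and 545352, and replicate 3 had 615080 and 310557. Whether this difference bears on its chromosome 10 levels was not tested.

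Regions on chromosome 10 resembled those of the whole set in their place. Exons held 401 of them (31.1%, against 34.3% of all regions), introns 457 (35.4% against 34.5%) and intergenic sequence 433 (33.5% against 31.3%). A start site lay within 1 kb of 532 regions (41.2% against 44.8%). Regions were not spread evenly along the chromosome. Bins 11 to 13, from 100 to 130 Mb on the distal long arm, held 495 of the 1284 regions without a mitochondrial match, or 16.5 regions per Mb, against 7.30 per Mb in bins 6 to 9 and 6.83 per Mb in bins 1 to 3. These groups of bins were chosen after the values had been seen.

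The sequences of 4 regions to which the results refer are shown from the hg38 assembly, plus strand, with lower case letters throughout and capitals only where a CDX core (TTTATG or TTTATT, either strand) or an ETS core (AGGAAGT or CGGAAGT, either strand) was found. The first and the second lie in introns of SORCS3, the gene of a sorting receptor of neurons, the third is intergenic near FAM204A and the fourth lies beside the centromere, where it held the highest level of the long arm.
chr10:104937619-104937886: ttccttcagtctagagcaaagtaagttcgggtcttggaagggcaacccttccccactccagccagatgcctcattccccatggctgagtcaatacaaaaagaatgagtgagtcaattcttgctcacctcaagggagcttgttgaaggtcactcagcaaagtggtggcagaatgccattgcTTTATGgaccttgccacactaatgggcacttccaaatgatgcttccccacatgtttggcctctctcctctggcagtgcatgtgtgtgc
chr10:104809537-104809707: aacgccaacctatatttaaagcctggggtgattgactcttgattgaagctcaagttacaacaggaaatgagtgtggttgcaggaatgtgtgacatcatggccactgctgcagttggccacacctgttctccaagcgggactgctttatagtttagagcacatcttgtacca
chr10:118423887-118424077: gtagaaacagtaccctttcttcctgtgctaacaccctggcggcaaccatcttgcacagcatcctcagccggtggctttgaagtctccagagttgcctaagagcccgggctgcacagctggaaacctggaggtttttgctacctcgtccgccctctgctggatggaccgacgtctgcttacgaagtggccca
chr10:41859849-41860007: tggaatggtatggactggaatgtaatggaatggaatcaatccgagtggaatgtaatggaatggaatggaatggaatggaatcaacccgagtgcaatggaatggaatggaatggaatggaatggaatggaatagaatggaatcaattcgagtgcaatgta

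One CDX core was found in these sequences, in the first SORCS3 intron, and no ETS core. Among regions of 150 bp the CDX core was present in 13.9% of 592 on chromosome 10 and in 17.9% of 17356 over the whole set, and the ETS core in 7.60% and 8.19%. The region beside the centromere, built of a short tandem repeat, shared a word of 20 bases with 181 other regions of the set. The SORCS3 and FAM204A regions shared none. Over the chromosome 280 regions (21.7%) shared such a word, against 19.5% of all regions, and in bins 4 and 5 around the centromere the share was 56.3%. Counts of such regions are less certain, since reads from another copy can be assigned to them.

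The distal long arm stood lower against the proximal long arm in all 3 EHF+CDX1 libraries. This was measured without any scaling between libraries, as the ratio of the counts in bins 11 to 13 to those in bins 6 to 9. The ratio was 2.31, 2.78 and 2.59 in EV libraries, 2.61, 2.65 and 2.51 with EHF alone, and 2.83, 2.59 and 2.79 with CDX1 alone. It was 1.99, 1.53 and 2.11 in EHF+CDX1 libraries. Every EHF+CDX1 library lay below each of the other 9, and the single-factor lines overlapped EV. Group means were 2.56 ± 0.23 for EV, 2.59 ± 0.07 for EHF, 2.73 ± 0.13 for CDX1 and 1.88 ± 0.31 for EHF+CDX1 (SD over 3 libraries), the last being 73.4% of EV and 68.7% of the CDX1 line from which it was made. Without replicate 2 of EHF+CDX1 the mean ratio was 2.05, or 80.2% of EV. Restricted to regions that share no 20-base word with another, 435 in bins 11 to 13 and 238 in bins 6 to 9, the ratio in EHF+CDX1 was 72.9% of EV.

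The same pattern was present against bins 1 to 3 of the short arm. There the ratio was 3.21 to 3.58 over the 9 other libraries and 2.91, 2.48 and 2.69 in EHF+CDX1. As a share of all chromosome 10 counts, bins 11 to 13 held 33.6% to 44.5% in the 9 other libraries and 28.5%, 30.6% and 33.9% in EHF+CDX1, so that replicate 3 lay inside the range of the others by this measure. Bins 4 and 5, which carry the repeats around the centromere, held 15.2% to 30.5% of the chromosome's counts and varied as much within groups as between them.

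Regions at start sites showed the distal long arm most evenly. For each library the mean level of start-site regions, those no more than 1 kb from a start, was divided by the mean of the 12704 such regions on the other autosomes, mitochondrial matches left out. In bins 11 to 13 this ratio over 189 regions was 1.42, 1.51 and 1.51 in EV, 1.45, 1.45 and 1.38 with EHF alone, and 1.53, 1.48 and 1.53 with CDX1 alone. It was 0.955, 0.750 and 0.996 in EHF+CDX1. Start sites of the distal long arm had a mean above that of other autosomes in all 9 other libraries and below it in all 3 EHF+CDX1 libraries. In bins 6 to 9 the ratio was 0.898 to 1.06 in the 9 other libraries and 0.810 to 0.836 in EHF+CDX1, and in bins 1 to 3 it was 0.929 to 1.04 and 0.676 to 0.844. In both of these groups of bins every EHF+CDX1 library was thus below the other 9 as well, by a smaller step.

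**Figure D1:**
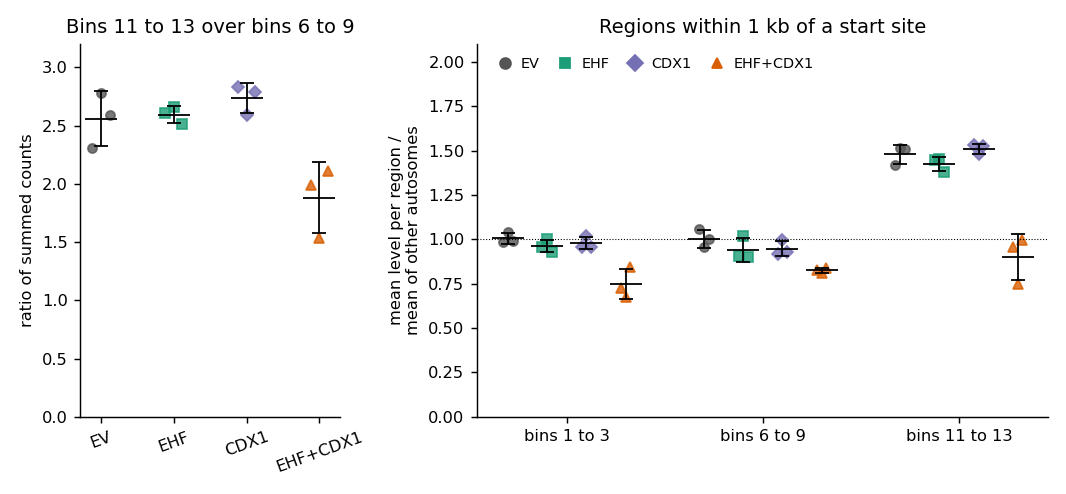
Counts on the distal long arm of chromosome 10 by library (points), with the mean and SD of each group (black, n = 3). Left, the ratio of counts in bins 11 to 13 to bins 6 to 9, which is 1.53 to 2.11 in EHF+CDX1 and 2.31 to 2.83 elsewhere. Right, the mean level of start-site regions over that of other autosomes in 3 groups of bins, with bins 11 to 13 at 1.38 to 1.53 in EV, EHF and CDX1 and at 0.750 to 0.996 in EHF+CDX1.

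Levels by arm were then taken per 1000000 counts on the other autosomes, with mitochondrial matches and the EHF and CDX1 loci left out. On 10q the level was 42799, 48285 and 43207 in EV, 42353, 46233 and 40209 with EHF alone, 43838, 45833 and 42910 with CDX1 alone, and 36089, 28815 and 34295 with both. All EHF+CDX1 libraries were below the other 9, with a mean of 33066 ± 3789 against 44764 ± 3057 in EV, a difference of -0.44 on the log2 scale. The EHF and CDX1 means differed from EV by -0.06 and -0.02, within the spread of the EV libraries. These directions depend on the scale: with mitochondrial matches kept in the total and the arm, the 10q mean was 16122 ± 1560 in EHF+CDX1 and 13757 ± 2000 in EV, a log2 difference of 0.23, and EHF and CDX1 stood at 0.29 and 0.24. That total also holds the mitochondrial share, 64.8% to 73.6% in EV and 39.3% to 58.1% in EHF+CDX1. Other chromosomes were not computed on this scale, so the 0.23 does not compare 10q with them.

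On 10p the level was 11186, 10845 and 10450 in EV, 10457, 10688 and 10134 with EHF alone, 10605, 11163 and 10534 with CDX1 alone, and 10019, 8196 and 9510 with both. The EHF+CDX1 libraries again lay below the other 9, with a smaller mean difference from EV of -0.23 (log2), which turned to 0.27 with mitochondrial matches kept. EHF and CDX1 differed from EV by -0.05 and -0.01.

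By bin, EHF+CDX1 lay farthest below EV in bins 11 to 13. In bin 11 the levels were 5473, 5616 and 5196 in EV and 3877, 3110 and 4345 in EHF+CDX1, a log2 difference of the means of -0.52. In bin 12 they were 6903, 10549 and 7823 in EV against 5397, 4688 and 6039, a difference of -0.65. In bin 13 they were 5786, 8763 and 6392 in EV against 3889, 3536 and 4467, a difference of -0.82. In these 3 bins every EHF+CDX1 library was below the other 9, and in none of the other 11 bins was this so. On the rest of the long arm, bins 5 to 10 differed from EV by -0.43, -0.16, 0.02, -0.21, -0.38 and -0.36, and bin 5 also stood at -0.47 in EHF and -0.30 in CDX1. Bins 1 to 4 of the short arm differed by -0.29, -0.31, -0.27 and -0.16. Bin 14, the last 3 Mb with 20 regions, gave no common direction, with levels of 5066, 2338 and 1891 in EHF+CDX1 and 3277, 2037 and 2955 in EV.

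**Figure D2:**
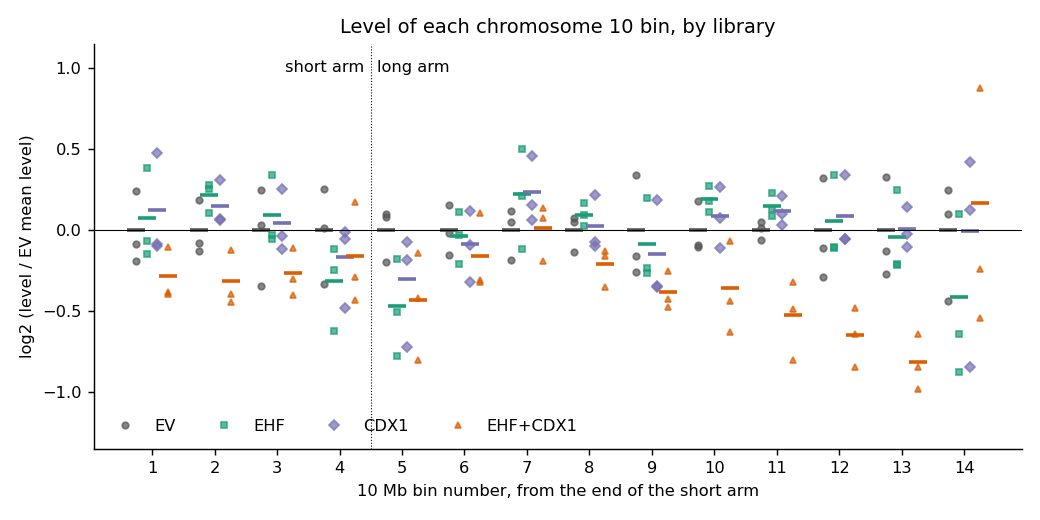
Level of each 10 Mb bin of chromosome 10 relative to the EV mean (log2), by library (points), with the group means as bars. All EHF+CDX1 libraries lie below the other 9 in bins 11 to 13, where the means are at -0.52, -0.65 and -0.82. Levels are per 1000000 counts on other autosomes without mitochondrial matches. With those kept the difference over bins 11 to 13 together was -0.00 and that over 10q was 0.23.

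For bins 11 to 13 together the EHF+CDX1 mean was 63.0% of EV, or -0.67 on the log2 scale, while EHF and CDX1 stood at 0.05 and 0.07. Start-site regions there differed from EV by -0.52 and regions farther from a start site by -0.80. In bins 6 to 9 the same classes differed by -0.09 and -0.35. The mean level of 421 of the 495 regions in bins 11 to 13 (85.1%) was lower in EHF+CDX1 than in EV, against 53.4% in bins 6 to 9, 64.4% in bins 1 to 3 and 38.3% of regions on the other autosomes. With mitochondrial matches kept in the total, the difference of bins 11 to 13 from EV was -0.00 while EHF and CDX1 stood at 0.42 and 0.35, so that the EHF+CDX1 mean was below both single-factor means but no longer below EV. On that scale 10q as a whole stood at 0.23 in EHF+CDX1.

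Windows of 2 Mb described the level along the chromosome. The limits of the stretches below were set with the window values in view, so they do not locate a boundary. From 88 to 98 Mb the 4 windows with at least 10 regions differed from EV by -0.18 to 0.17 in EHF+CDX1. From 98 to 132 Mb 15 such windows were all below EV, by -1.02 to -0.36 with a median of -0.66, and in 10 of them every EHF+CDX1 library was below the other 9. The medians of EHF and CDX1 over the same 15 windows were 0.07 and 0.04. The lowest windows, at 126 to 128 Mb and 128 to 130 Mb, stood at -1.01 and -1.02, and they hold the genes ADAM12, DOCK1 and MKI67. From 0 to 38 Mb 11 of 13 windows were below EV in EHF+CDX1, with a median of -0.32 against 0.13 in EHF and 0.08 in CDX1, and in 2 of them all EHF+CDX1 libraries lay below the other 9. From 38 to 46 Mb, around the centromere, the medians of 4 windows were -0.43 in EHF+CDX1, -0.42 in EHF and -0.23 in CDX1. A stretch from 76 to 88 Mb was also below EV in EHF+CDX1, with a median of -0.55, but EHF and CDX1 stood at -0.20 and -0.16 there, and in only 1 of its 5 windows did all EHF+CDX1 libraries lie below the other 9.

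**Figure D3:**
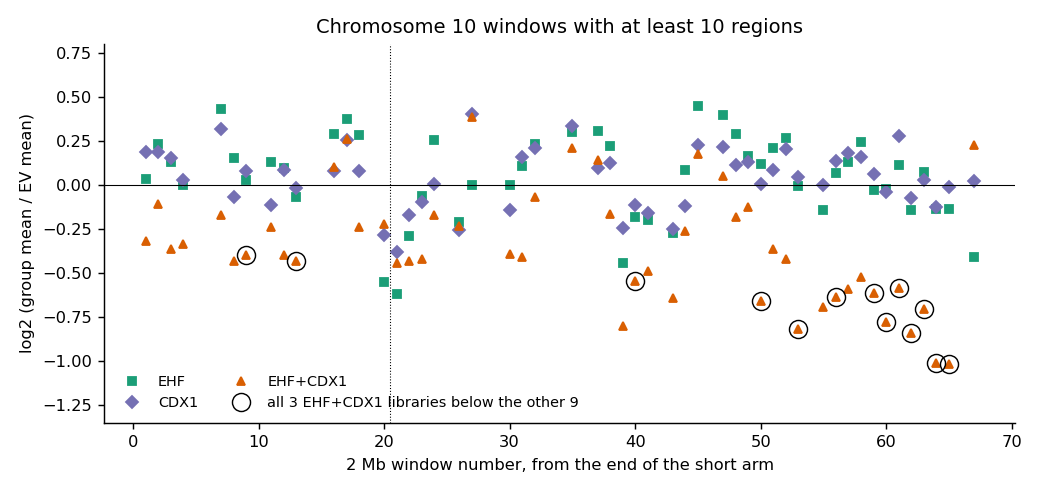
Level of 2 Mb windows of chromosome 10 with at least 10 regions, as the log2 ratio of group mean to EV mean against window number from the end of the short arm (dotted line, arm boundary). Circles mark the windows in which all 3 EHF+CDX1 libraries lie below the other 9. Of these, 10 fall between 98 and 132 Mb, a stretch cut with the values in view. EHF and CDX1 have medians of 0.07 and 0.04 there. Levels leave out mitochondrial matches, and with those kept the difference over the whole of 10q was 0.23.

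Against the other autosomes, each scaled on the remaining ones, chromosome 10 in EHF+CDX1 stood at -0.39 from EV, the lowest but for chromosome 16 at -0.41, and chromosome 13 was highest at 0.76. All 3 EHF+CDX1 libraries were below the other 9 at chromosome 10. The same was so at chromosomes 1, 4, 5 and 15, which stood at -0.17, -0.18, -0.26 and -0.29, while at chromosome 16 only 1 library was. In EHF and CDX1 chromosome 10 stood at -0.06 and -0.02, and ranked 8 from the lowest of 22 in both. Among 284 autosomal bins of 10 Mb with at least 20 regions, bins 13, 12 and 11 of chromosome 10 ranked 1, 6 and 14 from the lowest in EHF+CDX1 against EV, and the median over all of these bins was 0.09. In 14 of the 284 bins (4.93%) every EHF+CDX1 library was below the other 9, and 3 of the 14 were those bins. Another was bin 9 of chromosome 16, the end of its long arm, with levels of 6548 to 8335 in the 9 other libraries and 5135, 3418 and 5219 in EHF+CDX1. This bin was picked because of the karyotype given above, and the rest of the 14, on other parts of the autosomes, are not listed. No test bears on whether the segments of the 2 chromosomes changed together.

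**Figure D4:**
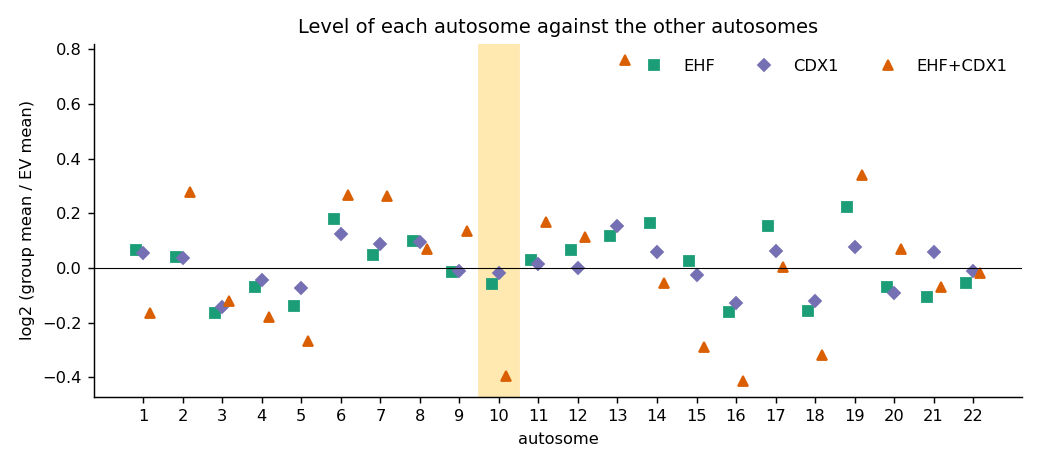
Level of each autosome on the remaining autosomes, as the log2 ratio of group mean to EV mean, with chromosome 10 shaded. In EHF+CDX1 chromosome 10 lies at -0.39 and chromosome 16 at -0.41, while EHF and CDX1 place chromosome 10 at -0.06 and -0.02. Mitochondrial matches are left out, and with those kept the differences of 10p and 10q in EHF+CDX1 were 0.27 and 0.23. The other autosomes were not computed that way.

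Region by region, edgeR's quasi-likelihood test over all 30154 regions that passed the filter on low counts, of which 1289 were on chromosome 10, called 37 chromosome 10 regions in EHF+CDX1 against EV (2.87%, adjusted p under 0.05). Of all regions tested 2.57% were called. Calls on chromosome 10 were 35 lower and 2 higher, while over all regions 0.779% were called lower and 1.79% higher. Of the 35 lower regions 21 lay in bins 11 to 13. The contrast is the one that drew attention to the chromosome, so these counts are given without a reading. They rested on few libraries: without replicate 2 of EHF+CDX1 the count was 2, without replicate 2 of EV 4, and without replicates 1 and 3 of EV or replicate 1 of EHF+CDX1 21, 19 and 22, while without replicate 2 of EHF it was 60. The calls over all regions moved too. In the same order they were 60, 145, 384, 335, 610 and 1129, against 776 with every library. The median log2 fold change was -0.74 over bins 11 to 13 and -0.16 over bins 6 to 9, against 0.21 over the other autosomes, which is where this scaling placed the typical region.

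All 3 EHF+CDX1 libraries were below all 3 EV libraries at 229 of 1289 regions on chromosome 10 (17.8%) and at 130 of 495 in bins 11 to 13 (26.3%), with 6.53% over all regions tested. They were above at 50 (3.88%) and 6 (1.21%), with 15.4% over all regions.

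Against EHF cells, EHF+CDX1 cells had 38 calls on chromosome 10, of which 11 were higher and 27 lower. Over all regions 4.35% were called, 3.65% higher and 0.7% lower. Against CDX1 cells they had 19, of which 3 were higher and 16 lower. Over all regions 2.6% were called, 2.06% higher and 0.541% lower. Both comparisons share the EHF+CDX1 libraries with the one against EV. Without replicate 2 of EHF+CDX1 both counts were 0 by edgeR, without replicate 3 of EHF+CDX1 they were 58 and 39, and they were 2 and 0 by DESeq2. The count against EHF was 24, 12 and 19 without replicates 1, 2 and 3 of EHF, and that against CDX1 was 4, 2 and 7 without replicates 1, 2 and 3 of CDX1, 9 without replicate 1 of EHF+CDX1 and 29 without replicate 2 of EHF. Over all regions the full fits called 1311 against EHF and 783 against CDX1. These were 74 and 59 without replicate 2 of EHF+CDX1, 2021 and 1250 without its replicate 3, and 173 and 85 by DESeq2. Against EHF the fits without an EHF replicate called 746, 410 and 633 over all regions. Against CDX1 the fits just listed called 323, 122, 364, 543 and 1082.

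The single-factor lines gave no call on chromosome 10 against EV by edgeR as fitted above, and none by DESeq2 or limma voom. Of the 1289 regions 71 in EHF and 39 in CDX1 had an unadjusted p under 0.05 by edgeR. Over all 30154 regions tested these numbers were 1496 (4.96%) and 1150 (3.81%). Over all regions 0.00995% were called in EHF and 0% in CDX1. The test of whether the combined effect departed from the sum of the single effects on the log2 scale also called none on chromosome 10 by edgeR. Here 120 of the 1289 regions had an unadjusted p under 0.05, against 2978 of all 30154 (9.88%). Of all regions 0.123% were called (0.0696% higher and 0.0531% lower). DESeq2 called none for this test and limma voom 1. With the replicate number added to the edgeR fit as a block, 4 chromosome 10 regions were called in EHF, all lower, and 0 in CDX1. That fit called 6 for the departure from the sum, 3 higher and 3 lower. Over all 30154 regions it called 66, 6 and 134.

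Among the called regions with at least 20 counts in the higher group, the lowest fold change was at the first SORCS3 sequence above. Its counts were 18, 64 and 10 in EV, 13, 60 and 18 with EHF alone, 21, 37 and 12 with CDX1 alone, and 13, 38 and 11 with both. As levels these were 129.9 ± 81.2 in EV and 42.7 ± 4.58 in EHF+CDX1 (SD, n = 3), a log2 fold change of -1.70 ± 0.38 (SE, edgeR adjusted p = 0.00405), and all EHF+CDX1 libraries lay below the other 9, as at 1.27% of all regions tested. The call was lost without replicate 2 of EV or of EHF+CDX1. The other SORCS3 intron had counts of 25, 79 and 16 in EV and 13, 76 and 16 in EHF+CDX1, with a log2 fold change of -1.47 ± 0.38 (edgeR adjusted p = 0.0175). That call was lost without replicate 2 of EV or replicate 1 or 2 of EHF+CDX1.

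Of the other regions taken by the same rule, an intron of FANK1 (chr10:125900986-125901299) had levels of 135.4 ± 12.7 in EV and 54.5 ± 10.5 in EHF+CDX1, a log2 fold change of -1.37 (edgeR adjusted p = 0.0275). An intergenic region (chr10:128629433-128629704), 503010 bp from MKI67, the proliferation marker gene and the nearest protein-coding start, stood at -1.29 (edgeR adjusted p = 0.0435). Both lie in bin 13. The remaining pair lay elsewhere, an intergenic region of bin 6 (chr10:58895497-58895656) at -1.56 (edgeR adjusted p = 0.0316) and a region of bin 4 that matches mitochondrial DNA (chr10:36434476-36434631) at -1.36 (edgeR adjusted p = 0.0320). Each of these 4 calls was lost without replicate 2 of EHF+CDX1, and each also without at least one EV library.

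Without replicate 2 of EHF+CDX1, where calls over all regions went from 776 to 60, 33 of the 35 lower calls were lost. The 2 that were not are the FAM204A sequence above and a region in an intron of ANK3, which encodes a membrane-cytoskeleton adaptor. Both were named after their values were seen. The FAM204A region had counts of 14, 23 and 11 in EV, 9, 25 and 12 with EHF alone, 10, 17 and 10 with CDX1 alone, and 4, 22 and 5 with both, with levels of 77.8 ± 4.12 in EV and 19.4 ± 7.19 in EHF+CDX1. Its log2 fold change was -1.96 ± 0.45 (SE, edgeR adjusted p = 0.00576), and it stayed called without any one of the 12 libraries. The ANK3 region had counts of 26, 23 and 10 in EV and 4, 26 and 5 in EHF+CDX1, with a log2 fold change of -2.13 ± 0.43 (SE, edgeR adjusted p = 0.00107), and it shared a 20-base word with 88 other regions. Of the 35 regions 10 shared a 20-base word with another region (28.6%, against 21.7% of chromosome 10 regions). A match to mitochondrial DNA was present in 2, against 0.542% of chromosome 10 regions. Another 2 counts are of start sites: 2 of the 35 lay within 1 kb of one, against 41.2% of chromosome 10 regions.

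At 2 of the lower regions EHF+CDX1 had at most 3 counts in every library. In an intron of KCNMA1, a potassium channel gene (chr10:77505007-77505157), counts were 4, 22 and 5 in EV and 2, 1 and 3 in EHF+CDX1, with mean levels of 44.6 ± 28.7 and 6.51 ± 5.76. The ratio of counts pooled over a group's libraries to their pooled totals, in which the deep replicate 2 of EHF+CDX1 weighs most, was 12.1 (95% exact interval 4.97 to 35.5, counting error only). At a region 2269 bp from a start site of ABCC2, the gene of an apical export pump for conjugated compounds, they were 6, 9 and 2 in EV and 1, 2 and 2 in EHF+CDX1, with mean levels of 25.7 ± 9.66 and 4.54 ± 3.36 and a pooled ratio of 7.96 (2.82 to 27.6), and this region shared a 20-base word with 91 others.

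The 2 regions called higher had at most 1 count in any EV library, so EV did not bring them through the filter on low counts. A region in an intron of NRG3, the gene of a neuregulin, had 0, 0 and 1 in EV and 13, 43 and 2 in EHF+CDX1, with mean levels of 2.43 ± 4.21 and 32.0 ± 21.4 and a pooled ratio of 24.8 (95% exact interval 4.27 to 995). Replicate 3 of the EHF+CDX1 group, at a level of 8.40, was close to replicate 3 of EV at 7.30. An intergenic region near the centromere (chr10:39042887-39043037) had 0 in all EV libraries and 9, 28 and 3 in EHF+CDX1, at least 1.48-fold higher than a floor of 3 counts a library. Both shared a 20-base word with other regions, and both calls were lost without replicate 2 of EHF+CDX1.

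The 10 regions of highest level, 5 on each arm, lay mostly in the repeats around the centromere. The region beside the centromere whose sequence is shown had counts of 318, 276 and 219 in EV, 272, 192 and 168 with EHF alone, 343, 209 and 184 with CDX1 alone and 668, 729 and 263 with both, and levels of 1406 ± 387 in EV and 1294 ± 563 in EHF+CDX1. A region near the end of the long arm, 62528 bp from FRG2B (chr10:133689323-133689498), had levels of 1067 ± 333 and 1246 ± 828, with replicate 3 of EHF+CDX1 below the other replicates. In bins 4 and 5 lay 8 of the 10, with the start site of ZNF25, a zinc finger gene, among them, and the start site of RSU1, which encodes a suppressor of Ras transformation, lay in bin 2. Their log2 fold changes in EHF+CDX1 against EV ran from -1.02 to 0.20, and none was called by edgeR (adjusted p from 0.188 to 0.975).

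Genes of chromosome 10 were followed through lists of 67 genes, each by the region with the most counts within 5 kb of a start site. A region was found for 36 genes through 35 regions, since FAS and ACTA2 share one. Of the 18 regions in bins 11 to 13, 16 had a log2 fold change below 0 in EHF+CDX1 against EV, with a median of -0.64, and none of them was called. Of the 17 elsewhere 10 were below 0, with a median of -0.06. In EHF against EV the medians were 0.00 and -0.00, and in CDX1 they were -0.09 and 0.07. Values for genes below are levels or log2 fold changes of EHF+CDX1 against EV with their SE.

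Growth control genes had a region at 9 of 12 loci, with 20 regions tested, none called higher or lower, and a median of -0.55. MXI1, which encodes an antagonist of MYC, lies in bin 12 and had 15, 49 and 15 in EV and 14, 42 and 21 in EHF+CDX1, at -1.14 ± 0.37 (edgeR adjusted p = 0.0730). CHUK, the gene of a kinase upstream of NF-kB, stood at -1.44 ± 0.56, TCF7L2 at -0.57 ± 0.50, FGFR2 at -0.19 ± 0.49, and KLF6 on the short arm at -1.19 ± 0.62. None of these passed the test. BMPR1A, MGMT and RET had no region.

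Lipid genes had a region at 8 of 12 loci and 16 regions tested, of which 1, the ABCC2 region above, was called lower. The other members named had values that did not pass. ACSL5, which encodes an acyl-CoA synthetase of enterocytes, had 9, 28 and 13 counts in EV and 8, 34 and 11 in EHF+CDX1, at -1.18 ± 0.42 (edgeR adjusted p = 0.0956). The start site that ACADSB, a gene of short branched acyl-CoA oxidation, shares with IKZF5 had levels of 125.0 ± 6.49 in EV and 62.0 ± 13.5 in EHF+CDX1, at -1.08 ± 0.37 (edgeR adjusted p = 0.0873), with all EHF+CDX1 libraries below the other 9. GPAM, the gene of an acyltransferase that opens triglyceride synthesis, stood at -0.63 ± 0.38. SCD, the gene of the stearoyl-CoA desaturase, stood at 0.30 ± 0.47 although it lies in bin 11.

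Genes of the other lists gave no calls in EHF+CDX1 against EV, with 2 of 6 transcription factor regions, 0 of 10 mitochondrial, 1 of 7 matrix and 2 of 5 xenobiotic regions at an unadjusted p under 0.05 by edgeR. In the growth control list 5 of 20 regions and in the lipid list 6 of 16 were under it, and 295 of 1289 on chromosome 10 and 5733 of all 30154 regions tested. GATA3, the gene of a zinc finger transcription factor on the short arm, stood at -0.97 ± 0.40 and the homeobox gene HMX3 in bin 13 at -1.14 ± 0.51. OAT, the gene of ornithine aminotransferase in bin 13, stood at 0.19 ± 0.38 and TFAM, which encodes the factor that packages mitochondrial DNA, at 0.03 ± 0.37. ADAM12 in bin 13, the gene of a membrane metalloprotease, stood at -1.13 ± 0.46, while ITGB1 and NRP1 on the short arm stood at 0.02 ± 0.49 and 0.38 ± 0.56. The glutathione transferase genes GSTO1, whose start site is shared with CFAP43, and GSTO2, both in bin 11, stood at -0.79 ± 0.37 and -0.44 ± 0.38. None of 9 cytochrome P450 and AKR1C genes had a region.

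**Figure D5:**
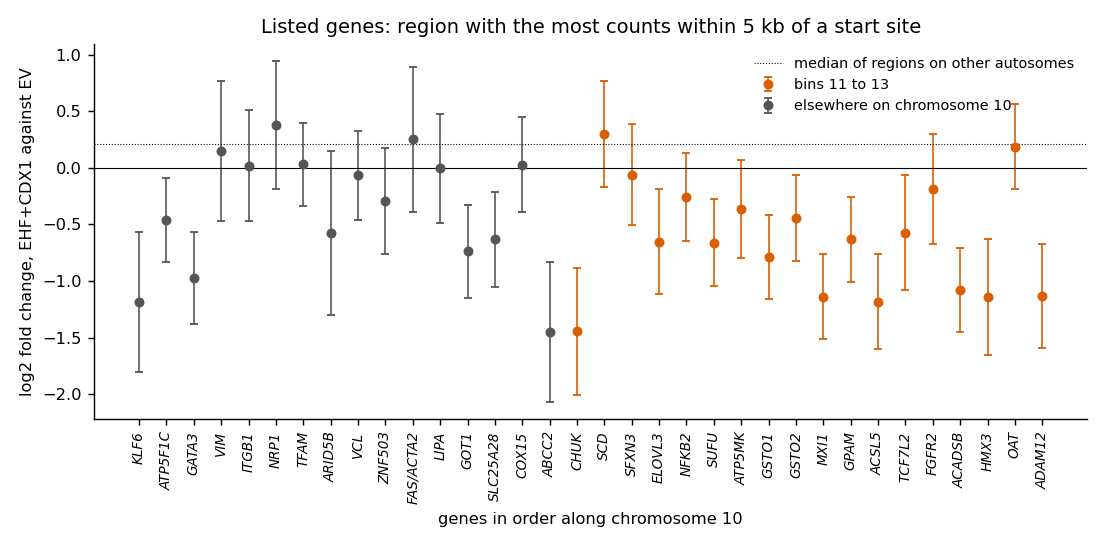
Log2 fold change in EHF+CDX1 against EV (points, edgeR, bars 1 SE) of the region with the most counts within 5 kb of a start site for the listed genes, in order along chromosome 10. Of the 18 regions in bins 11 to 13 (orange) 16 lie below 0, with SCD and OAT above, and of the 16 shown elsewhere (grey) 10 lie below 0. The dotted line is the median of regions on other autosomes, 0.21.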

How the data were processed

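ATAC-seq libraries had been made with Nextera Tn5. Per the labels and methods, the authors aligned reads with Subread (version 2.0.0) to hg38 and kept only reads with a unique place. Peaks came from HOMER (version 4.7), and the authors counted reads in merged regions with featureCounts (version 2.0.0). The deposited values were raw counts. Read shifting and duplicate removal were not given in the sources used here. Regions matching mitochondrial DNA over at least 40 bp at 80% identity were left out of levels, which were scaled per 1000000 counts on the other autosomes without the EHF and CDX1 loci. The error given for a group is the SD over its 3 libraries. Regions with a CPM of at least 3 in 1 library were tested with edgeR (version 4.0.16, R version 4.3.3, TMM scaling, quasi-likelihood test, all 4 groups in 1 fit, Benjamini-Hochberg adjustment over all regions, calls at 0.05). DESeq2 (version 1.42.0) and limma voom (version 3.58.1) were alternatives, with other scalings, filters, a replicate block and each library left out. In counts simulated for EHF+CDX1 against EV, the edgeR test called 93 of 200 regions changed 4-fold (46.5%) and 5 unchanged regions. The changed regions were drawn only from those above a minimum expected count, and all regions were given 1 common spread. Changes of 4-fold or less can thus be missed, and the share found among regions of few counts was not simulated. Genes were assigned with GENCODE gene models. Counting intervals and floors cover counting error only. Named regions were the 5 of highest level on each arm, the 6 called regions of lowest and highest log2 fold change with a mean of at least 20 counts in the higher group, and listed genes. Regions, gene lists, groups of bins and stretches of windows were chosen with earlier results of these data known. Alternatives for bins 11 to 13 and for the ratio of bins (shared words, replicate 2) were added after seeing the data. The values of 1 listed gene are not reported here, although it counts among the members of its list.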

Additional observations from a re-analysis of the deposited data

How the results depend on the processing

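Low depth limited single regions, whose median count was 4 to 18 a library, while arms summed 281 and 1003 regions. The number of chromosome 10 regions called in EHF+CDX1 against EV was 8 by DESeq2, 0 with library-size scaling, 18 with a filter of CPM 3 in 3 libraries and 105 with a replicate block. Over all regions these settings called 111, 44, 369 and 1711, against 776 in the main fit. Against EHF the chromosome 10 counts were 2, 2, 15 and 85, with 173, 415, 519 and 1796 over all regions (main fit 1311). Against CDX1 they were 0, 0, 8 and 57, with 85, 309, 345 and 1243 over all regions (main fit 783). By voom with quantile normalization the count against CDX1 was 39, with 1028 over all regions. In EHF against EV the block gave 4, and for the interaction it gave 6, with 1 by other-autosome totals and 1 by voom. Over all regions these were 66, 134, 46 and 23. The labels do not say what the replicate numbers mark, and the libraries did not pass the criterion for pairs, a correlation over 0.1 in each: correlations of same-number deviations ran from -0.01 to 0.30 and exceeded it in 5 of 18 pairs, although 33 of 36 comparisons placed a library closest to its own number, a hint from the data and not the design. Leaving out 1 library at a time gave 2 to 60 calls against EV, 0 to 58 against EHF, 0 to 39 against CDX1, 0 to 1 for the interaction and 0 to 0 in both single-factor lines. Over all regions the ranges were 60 to 1129, 74 to 2021, 59 to 1250 and 4 to 67, with 0 to 16 in EHF and 0 to 3 in CDX1. Over these fits the log2 difference from EV ran from -0.29 to -0.15 on 10p and from -0.50 to -0.35 on 10q in EHF+CDX1, from -0.08 to -0.03 and from -0.12 to -0.00 in EHF, and from -0.03 to 0.02 and from -0.05 to 0.04 in CDX1. For bins 11 to 13 it ran from -0.77 to -0.52 in EHF+CDX1, from -0.08 to 0.20 in EHF and from -0.02 to 0.22 in CDX1. With mitochondrial matches kept, the difference was 0.27, 0.19 and 0.14 on 10p and 0.23, 0.29 and 0.24 on 10q in EHF+CDX1, EHF and CDX1. The median over regions gave -0.46 on 10p and -0.77 on 10q in EHF+CDX1, and -0.10 on 10q in CDX1. TMM scaling gave -0.15 and -0.11 on 10p in EHF and CDX1 and -0.12 on 10q in CDX1. Without the 5 highest regions EHF stood at 0.0091 on 10p, and without the regions around the centromere EHF and CDX1 stood at 0.15 and 0.12. Keeping mitochondrial matches puts their share into the total, 64.8% to 73.6% in EV and 39.3% to 58.1% in EHF+CDX1. What else moved these values was not tested. The median over 10q and over the other autosomes was -0.56 and 0.21 by TMM, -0.49 and 0.28 by DESeq2, and -0.70 and 0.04 by voom.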
